A study of Mus musculus with 37 samples.

Results

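The genes described here are 10 that p53 is known to switch on and whose products take part in cell death: Bax, Bbc3, Pmaip1, Perp, Fas, Tnfrsf10b, Aifm2, Bid, Apaf1 and Pidd1. They were chosen by name as a gene list, with no threshold on a measured value but with earlier results of these data known. All 10 were found in the table of cardiac fibroblasts (CFs), which lists 30892 genes, and all 10 in the single-cell tables, which list 31053 gene identifiers. In the table of neonatal rat ventricular myocytes (NRVMs), with 20158 genes, 7 were found, and Bbc3, Tnfrsf10b and Pidd1 were not matched by symbol. All members found passed the filter on low counts.

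p53 is a transcription factor that is stabilized when DNA or nucleotide supply is damaged, and it can either arrest the cell cycle or start cell death. Its death program has a mitochondrial arm, in which BH3-only proteins such as PUMA (Bbc3), NOXA (Pmaip1) and BID release BAX to open the outer mitochondrial membrane, and cytochrome c then assembles APAF1 into the apoptosome. It also has a receptor arm, in which FAS and the TRAIL receptor (Tnfrsf10b) recruit caspase-8 at the cell surface, while PIDD1 forms the PIDDosome that activates caspase-2, PERP is a membrane protein of desmosomes and of the p53 response, and AIFM2 is an oxidoreductase of membranes and mitochondria that also restrains ferroptosis.

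The study asked what myocytes release when the ectonucleotidase ENPP1 splits extracellular ATP into AMP, and what it does to other cells of the heart. CFs were immortalized mouse cells of strain C57BL/6, labelled wild type, seeded sparsely and moved to serum-free medium with insulin, transferrin and selenium. They then received myocyte conditioned medium, that is medium taken from NRVMs that had been exposed for 24 h to vehicle, ENPP1, ATP, ENPP1+ATP or AMP, and were harvested after 24 h or 48 h, with 2 libraries in each of the 10 groups. NRVMs, labelled wild type, received the 5 conditioned media for 24 h, with 3 libraries in each group. The labels give them the strain Sprague-Dawley and a rat cell type but the organism mouse, and they were taken here as rat cells. Nonmyocytes of injured C57BL/6 hearts at 7 days after infarction gave 1 single-cell library from ENPP1CKO mice and 1 from control mice. In ENPP1CKO mice a tamoxifen-dependent Cre under the Col1a2 promoter deletes floxed Enpp1, so the deletion is aimed at fibroblasts. The labels name the control mice wild type and do not say how many hearts entered a library. The CFs were immortalized with SV40 antigen as the study describes, and which immortalized line was sequenced is not given in the sources used here. The large T antigen of SV40 is known to bind p53. The study calls its replicates biological in general terms, and which step was repeated for these libraries is not given in the sources used here, so p-values measure the spread between these libraries.

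CF libraries held 32184799 to 115824659 counts (median 43133824), the deepest being replicate 1 of vehicle medium at 24 h, and NRVM libraries held 13481389 to 16977980 (median 14937081). Mitochondrial genes took 2.14% to 2.32% of counts in CFs on vehicle medium, 2.79% to 5.37% on ENPP1+ATP medium and 2.46% to 4.47% on AMP medium. The summed level of 12 fibroblast markers in CFs was 7859 to 8441 CPM (counts scaled to a common library size) on vehicle medium, 3890 to 4438 on ENPP1+ATP medium and 3105 to 4681 on AMP medium, and Lum and Thy1 of that list lay under 1 CPM. The 6 markers of dividing cells summed to 1279 to 1320 CPM on vehicle medium and 1852 to 3213 on ENPP1+ATP medium. The 8 macrophage markers summed to 3.15 to 3.93 CPM on vehicle medium, 21.6 to 66.4 on ENPP1+ATP medium and 46.1 to 72.2 on AMP medium, and in this list Cd68 and Csf1r alone passed 1 CPM. Smooth muscle or pericyte markers (7) summed to 114 to 132 CPM on vehicle, 159 to 363 on ENPP1+ATP and 165 to 421 on AMP. Monocyte markers (5) summed to 43.3 to 54.7 CPM on vehicle, 55.1 to 139 on ENPP1+ATP and 58.6 to 160 on AMP. In the pericyte and monocyte lists alike, 1 marker passed 1 CPM. The NRVM cultures carried 9 of 9 cardiomyocyte markers over 1 CPM, but also a fibroblast list of 25278 to 26685 CPM on vehicle medium, 8616 to 9058 on ENPP1+ATP medium, 10588 to 12002 on ATP medium and 11740 to 12626 on AMP medium. The cardiomyocyte list of the NRVMs summed to 41688 to 43968 CPM on vehicle medium, 34406 to 36142 on ENPP1+ATP, 22056 to 23883 on ATP and 40126 to 42944 on AMP medium. Macrophage markers of the NRVMs summed to 2.97 to 3.37 CPM on vehicle and 11.5 to 13.9 on ATP. On ENPP1+ATP they were at 7.03 to 8.34 and on AMP at 6.51 to 8.98. Endothelial markers were at 20.2 to 26.2 on vehicle, 54.1 to 75.5 on ATP, 37.5 to 42.2 on ENPP1+ATP and 35.4 to 91.3 on AMP. Monocyte markers were at 244 to 278 on vehicle, 87.7 to 113 on ATP, 87.1 to 95.1 on ENPP1+ATP and 78.3 to 116 on AMP. Mitochondrial genes took 8.14% to 8.35% of NRVM counts on vehicle medium, 8.77% to 9.62% on ATP, 10.9% to 11.1% on ENPP1+ATP and 10.5% to 11.1% on AMP medium. The part of these shifts in the changes of the death genes was not tested, and in bulk RNA fewer cells of a type and less RNA per cell cannot be told apart.

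The promoters of 5 members are shown because, among the members in the promoter table, they run from Pidd1, whose log2 fold change reached 2.17 in CFs, through Bax and Bbc3, which rose less, to Aifm2 and Bid, which did not rise at 24 h. Each sequence covers the 250 bases before a transcription start in the RefSeq table of build GRCm38.p6, read on the strand of the gene, and 7 of the 10 members matched that table with 9 starts in all. Capitals mark the best match to a pair of p53 decamers, the 10-base unit of the p53 response element, which is palindromic and so was searched on both strands at once, with up to 3 mismatches in the pair and up to 13 bases between the units. The fixed C and G of each unit were required, so mismatches were allowed only at its other bases. The Aifm2 start used here lies inside the gene span that the annotation gives to Aifm2.
Bax, chr7:45466899-45467148, minus strand: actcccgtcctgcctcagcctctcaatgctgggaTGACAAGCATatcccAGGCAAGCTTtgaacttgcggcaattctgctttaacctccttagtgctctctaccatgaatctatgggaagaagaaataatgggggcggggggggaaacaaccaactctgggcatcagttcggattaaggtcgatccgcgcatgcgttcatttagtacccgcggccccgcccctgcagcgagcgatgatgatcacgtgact
Bbc3, chr7:16309333-16309582, plus strand: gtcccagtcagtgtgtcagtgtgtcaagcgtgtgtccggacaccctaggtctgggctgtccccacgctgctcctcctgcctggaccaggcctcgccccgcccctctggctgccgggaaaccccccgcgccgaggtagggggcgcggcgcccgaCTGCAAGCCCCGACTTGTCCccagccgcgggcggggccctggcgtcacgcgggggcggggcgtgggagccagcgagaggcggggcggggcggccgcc
Pidd1, chr7:141444026-141444275, minus strand: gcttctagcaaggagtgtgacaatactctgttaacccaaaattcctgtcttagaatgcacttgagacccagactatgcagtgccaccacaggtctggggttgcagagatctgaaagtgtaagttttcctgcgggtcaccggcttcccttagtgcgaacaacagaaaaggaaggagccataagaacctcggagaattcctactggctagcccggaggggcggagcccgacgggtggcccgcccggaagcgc
Aifm2, chr10:61720399-61720648, plus strand: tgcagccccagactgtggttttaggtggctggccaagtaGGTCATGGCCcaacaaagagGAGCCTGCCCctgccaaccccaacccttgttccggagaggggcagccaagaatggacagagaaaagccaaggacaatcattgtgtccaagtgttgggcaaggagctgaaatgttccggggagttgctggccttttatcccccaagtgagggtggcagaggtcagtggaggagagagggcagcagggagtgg
Bid, chr6:120916825-120917074, minus strand: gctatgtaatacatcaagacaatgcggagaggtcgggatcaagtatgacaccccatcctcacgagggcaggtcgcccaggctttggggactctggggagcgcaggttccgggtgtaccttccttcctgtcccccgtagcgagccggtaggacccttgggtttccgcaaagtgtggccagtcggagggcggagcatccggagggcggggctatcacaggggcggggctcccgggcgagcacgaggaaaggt
A pair of decamers was found in 4 of the 9 member promoters, which belong to Bax, Bbc3 (2 starts) and Aifm2, and in 12.96% of 32851 promoters of the same length. The Bax promoter had 2 mismatches in its pair, with units beginning 216 and 201 bases before the start, and the nearer unit matched without a mismatch. Such an exact decamer was found in 1 of the 9 member promoters and in 7.13% of all promoters. The Bbc3 and Aifm2 pairs had 3 mismatches each, and the Pidd1 and Bid windows held no pair. A match is a run of letters and was not read as a bound site.

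In CFs on ENPP1+ATP medium most of the death genes were higher than on vehicle medium, and Pmaip1, Perp and Pidd1 moved furthest. At 24 h 8 of 10 members were higher and 0 lower by edgeR's quasi-likelihood test (Benjamini-Hochberg adjusted over 17879 genes, threshold 0.05), where 23.9% of all genes tested were higher and 25.3% lower. At 48 h 9 members were higher and 1, Aifm2, was lower, where 20.8% of all genes were higher and 24.4% lower. The median log2 fold change of the 10 members was 0.54 at 24 h and 1.07 at 48 h, beside -0.0046 and -0.027 over all genes tested.

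On AMP medium most members were higher as well, in a comparison with the same vehicle libraries. At 24 h 8 members were higher and 1, Bid, was lower (25.3% and 27.5% of all genes), with a median of 0.79. At 48 h 9 were higher and 0 lower (21.1% and 22.9% of all genes), with a median of 1.13 and Aifm2 not called. AMP medium exceeded ENPP1+ATP medium at 24 h for 2 members, Bax and Tnfrsf10b (2.6% of all genes were higher and 3.65% lower). Pmaip1 missed the threshold there (0.41 ± 0.12, edgeR adjusted p = 0.053) and passed it with no filter, a replicate block or only the groups compared. At 48 h AMP medium exceeded ENPP1+ATP medium for 0 members, where 0.0895% of all genes were higher and 0.0727% lower, 4 members had an unadjusted p under 0.05 and DESeq2 called 0 members.

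ATP medium moved fewer members than ENPP1+ATP medium. At 24 h 5 were higher (4.77% of all genes, with 6.32% lower), namely Perp, Pmaip1, Pidd1, Bax and Tnfrsf10b, and at 48 h 7 were higher (5.35% of all genes, with 2.48% lower), with Fas, Bbc3 and Apaf1 now among them and Perp no longer so. None was lower at either time by the edgeR test. Adding ENPP1 to ATP raised members beyond ATP medium, 6 at 24 h (21.8% of all genes, with 22.1% lower) and 7 at 48 h (18.2%, with 21.3% lower), and those higher at both times were Perp, Pmaip1, Pidd1, Tnfrsf10b, Fas and Apaf1, joined by Bax at 48 h. ENPP1 medium without ATP called 0 members and 0% of genes at both times by edgeR. In that comparison 249 genes at 24 h and 743 at 48 h had an unadjusted p under 0.05, 0 members were among them at either time, and DESeq2 called 0 members at both times.

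**Figure D1:**
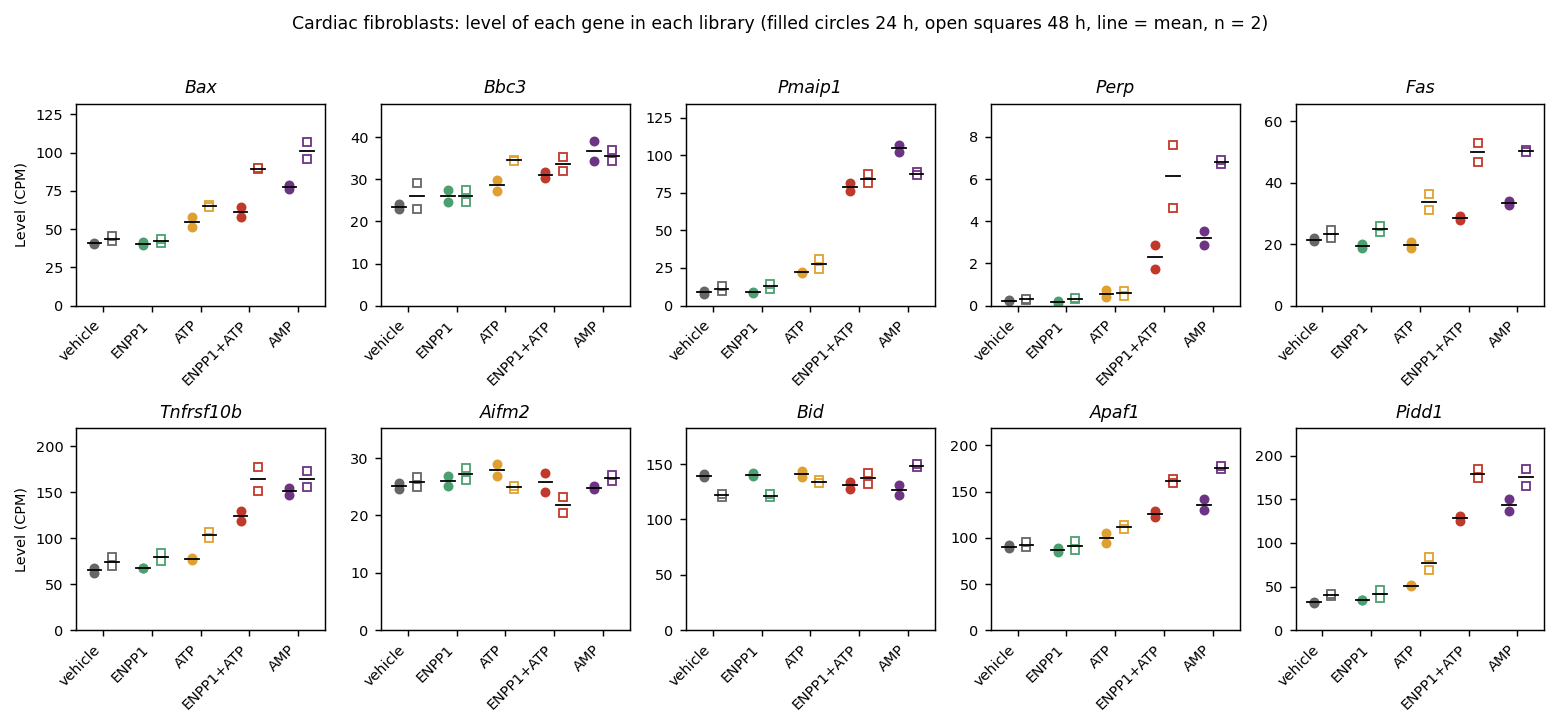
Level of each of the 10 genes in every CF library, in CPM on linear axes that differ between genes, by conditioned medium and time (n = 2 libraries a group, points are libraries). Pmaip1, Pidd1, Perp, Tnfrsf10b, Bax, Apaf1, Fas and Bbc3 sit higher in every ENPP1+ATP and AMP library than in any vehicle library. Aifm2 and Bid stay within a narrow band.

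The BH3-only gene Pmaip1 encodes NOXA, which neutralizes the survival protein MCL1. In CFs at 24 h its level was 7.65 and 9.73 CPM on vehicle medium, 8.46 and 9.25 on ENPP1 medium, 22.4 and 21.9 on ATP medium, 76.0 and 81.4 on ENPP1+ATP medium and 107 and 102 on AMP medium. The groups fell into 3 tiers that did not overlap, with vehicle and ENPP1 lowest, ATP between, and ENPP1+ATP and AMP on top. Over vehicle the log2 fold change was 3.22 ± 0.14 (SE) for ENPP1+ATP (edgeR adjusted p = 1.2e-11), 3.63 ± 0.14 for AMP and 1.38 ± 0.14 for ATP. At 48 h the levels were 9.78 and 12.7 CPM on vehicle medium, 10.98 and 14.4 on ENPP1, 31.2 and 24.6 on ATP, 81.5 and 87.6 on ENPP1+ATP, and 88.6 and 87.2 on AMP medium. The tiers were again apart, and the log2 fold changes were 2.92 ± 0.14 for ENPP1+ATP, 2.97 ± 0.14 for AMP and 1.32 ± 0.14 for ATP. The AMP response of Pmaip1 was smaller at 48 h than at 24 h, and it was the 1 member whose decrease passed the test, by 0.65 ± 0.19 on the log2 scale (edgeR adjusted p = 0.016). That call was lost without AMP replicate 1 or vehicle replicate 1 at 24 h, or without AMP replicate 2 or vehicle replicate 2 at 48 h (adjusted p from 0.053 to 0.13).

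The same gene went the other way in NRVMs. Pmaip1 stood at 37.1, 39.6 and 37.8 CPM on vehicle medium, 36.6, 34.5 and 30.4 on ENPP1 medium, 40.7, 40.8 and 44.4 on ATP medium, 23.6, 22.7 and 19.6 on ENPP1+ATP medium, and 26.7, 24.97 and 26.4 on AMP medium. Every ENPP1+ATP and AMP library lay below every vehicle library. The log2 fold change was -0.80 ± 0.08 for ENPP1+ATP (edgeR adjusted p = 7.2e-12) and -0.55 ± 0.08 for AMP, and ENPP1+ATP lay below ATP by 0.93 ± 0.08 on the log2 scale. CFs and NRVMs were separate tables, and their difference was not tested. Over 5 comparisons of media and the 7 shared members, 7 of 35 cases had libraries that did not overlap in either cell type and moved in opposite directions, beside 15.8% of the cases of all 10945 genes tested in both tables.

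Bbc3 encodes PUMA, a BH3-only protein that binds all the BCL2 survival proteins, and it moved far less than Pmaip1. At 24 h it was at 24.1 and 22.9 CPM on vehicle medium, 24.6 and 27.6 on ENPP1, 27.3 and 29.9 on ATP, 30.4 and 31.9 on ENPP1+ATP and 34.3 and 39.2 on AMP medium. Both ENPP1+ATP and AMP groups lay clear of vehicle, by 0.40 ± 0.10 (edgeR adjusted p = 0.0010) and 0.65 ± 0.09 on the log2 scale. ATP medium was not called at 24 h (0.28, adjusted p = 0.064), but it passed under each of DESeq2, DESeq2 size factors, no filter, a replicate block and only the groups compared (adjusted p from 0.011 to 0.042). At 48 h vehicle libraries were at 22.9 and 29.1 CPM, ATP at 34.6 and 34.5, ENPP1+ATP at 35.5 and 32.0, and AMP at 34.4 and 37.0. These 3 media overlapped one another and all lay above vehicle, with log2 fold changes of 0.41 ± 0.10 for ATP, 0.38 ± 0.10 for ENPP1+ATP and 0.46 ± 0.10 for AMP. Vehicle replicate 1 carried part of this: without it ENPP1+ATP came to 0.21 (adjusted p = 0.12) and ATP to 0.25 (adjusted p = 0.28), and the ATP call was also lost without ATP replicate 1 (adjusted p = 0.060).

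Bid is cut by caspase-8 and links the receptor arm to mitochondria. Its levels kept to a narrow range, 137.9 and 140.8 CPM on vehicle medium, 127.6 and 133.7 on ENPP1+ATP and 131.3 and 121.7 on AMP medium at 24 h. AMP lay below vehicle by 0.14 ± 0.05 on the log2 scale (edgeR adjusted p = 0.016), a call that was lost without AMP replicate 2 (adjusted p = 0.22) or vehicle replicate 2 (adjusted p = 0.075), or when only the 2 groups were fitted (adjusted p = 0.062). At 48 h vehicle was at 120.5 and 122.9 CPM, ENPP1+ATP at 142.1 and 132.1 and AMP at 147.0 and 150.3, so that both media now lay above vehicle, by 0.17 ± 0.05 and 0.29 ± 0.05. The ENPP1+ATP call was lost without ENPP1+ATP replicate 1 (adjusted p = 0.098) or vehicle replicate 1 (adjusted p = 0.051). Bid fell by 0.19 between 24 h and 48 h on vehicle medium itself (log2 scale, edgeR adjusted p = 0.016), where 3.2% of all genes were lower. The opposite strand of the Bid locus holds part of Bcl2l13, and whether counting used strand is not given in the sources used here. In NRVMs Bid ranged from 7.40 to 12.5 CPM over all 15 libraries and was called in no comparison by edgeR.

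Bax, which forms the pore in the outer mitochondrial membrane, rose in steps. At 24 h it was at 41.0 and 40.1 CPM on vehicle medium, 39.4 and 41.3 on ENPP1, 58.1 and 51.4 on ATP, 58.2 and 64.4 on ENPP1+ATP and 78.8 and 76.1 on AMP medium. ATP and ENPP1+ATP did not overlap but lay side by side, and their difference did not pass the test (log2 0.16 ± 0.07, edgeR adjusted p = 0.052), though it passed with DESeq2 size factors (adjusted p = 0.049) and without ATP replicate 1 (adjusted p = 0.015) or ENPP1+ATP replicate 1 (adjusted p = 0.027). AMP lay above both, by 0.34 ± 0.07 over ENPP1+ATP (adjusted p = 0.0031), a call lost without ENPP1+ATP replicate 1 (adjusted p = 0.0996). At 48 h Bax was at 42.2 and 45.2 CPM on vehicle medium, 40.7 and 43.6 on ENPP1, 65.8 and 64.2 on ATP, 89.3 and 89.8 on ENPP1+ATP, and 106.7 and 95.7 on AMP medium. Over vehicle the log2 fold changes at 24 h and 48 h were 0.43 and 0.57 for ATP, 0.59 and 1.04 for ENPP1+ATP, and 0.93 and 1.21 for AMP, each with an SE of 0.07. Reads from Gm45808, which overlaps Bax on its own strand, cannot be told apart by position.

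In NRVMs Bax rose too, and there ATP medium stood highest. It was at 69.99, 67.7 and 71.0 CPM on vehicle medium, 63.1, 66.4 and 68.6 on ENPP1, 102.5, 102.9 and 105.7 on ATP, 84.4, 89.2 and 84.7 on ENPP1+ATP and 96.8, 97.8 and 88.8 on AMP medium. The ATP libraries lay above all others, and the vehicle libraries below all of ATP, ENPP1+ATP and AMP. Log2 fold changes over vehicle were 0.58 ± 0.05 for ATP, 0.31 ± 0.05 for ENPP1+ATP and 0.44 ± 0.05 for AMP (edgeR adjusted p = 2.3e-13, 1.9e-06 and 5.5e-10).

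Apaf1, the scaffold of the apoptosome, rose in CFs by less than 2-fold. At 24 h it was at 88.7 and 91.9 CPM on vehicle medium, 94.4 and 105.3 on ATP, 122.2 and 129.3 on ENPP1+ATP, and 129.8 and 141.5 on AMP medium. At 48 h it was at 89.8 and 95.6 CPM on vehicle medium, 114 and 109 on ATP, 164.1 and 159.4 on ENPP1+ATP, and 174.6 and 177.3 on AMP medium. The ATP libraries lay between vehicle and the pair of ENPP1+ATP and AMP at both times, but ATP was not called over vehicle at 24 h (0.14 ± 0.06, edgeR adjusted p = 0.14). ENPP1+ATP and AMP lay above vehicle, with log2 fold changes of 0.48 ± 0.06 and 0.80 ± 0.06 for ENPP1+ATP and 0.59 ± 0.06 and 0.93 ± 0.06 for AMP. The ATP call at 48 h (0.27 ± 0.06, edgeR adjusted p = 0.0041) was lost without ATP replicate 1 (adjusted p = 0.092) or vehicle replicate 1 (adjusted p = 0.098). In NRVMs Apaf1 was at 42.1, 38.6 and 35.1 CPM on vehicle medium and 41.0, 45.4 and 47.0 on ATP medium, so that these groups overlapped. Its log2 fold change of 0.20 ± 0.07 passed the edgeR test (adjusted p = 0.0091) but not without ATP replicate 3 (adjusted p = 0.066) or vehicle replicate 3 (adjusted p = 0.10).

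Pidd1 encodes the p53-induced death domain protein that activates caspase-2. At 24 h it was at 32.3 and 31.5 CPM on vehicle medium, 34.85 and 34.77 on ENPP1, 51.1 and 51.3 on ATP, 130.7 and 125.7 on ENPP1+ATP, and 136.3 and 150.2 on AMP medium. At 48 h it was at 39.3 and 41.1 CPM on vehicle medium, 37.1 and 45.6 on ENPP1, 84.3 and 69.5 on ATP, 174.1 and 185.1 on ENPP1+ATP, and 165.7 and 184.7 on AMP medium. ATP lay apart from vehicle and from ENPP1+ATP at both times, and ENPP1+ATP and AMP overlapped at 48 h. The log2 fold changes over vehicle were 2.01 ± 0.09 at 24 h and 2.16 ± 0.09 at 48 h for ENPP1+ATP (edgeR adjusted p = 2.1e-13 and 5.2e-14), 2.17 ± 0.09 and 2.12 ± 0.09 for AMP, and 0.68 ± 0.09 and 0.94 ± 0.09 for ATP. On vehicle medium Pidd1 was itself higher at 48 h than at 24 h, by 0.33 on the log2 scale (adjusted p = 0.032), where 1.68% of all genes were higher.

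Perp showed large fold changes from a low start. It had 22 and 10 counts in the 24 h vehicle libraries and 14 and 15 in those of 48 h, or 0.19 and 0.24 CPM and 0.26 and 0.31 CPM. On ENPP1+ATP medium it had 71 and 126 counts at 24 h (1.74 and 2.85 CPM) and 202 and 281 at 48 h (4.64 and 7.60 CPM). On AMP medium it had 145 and 219 counts at 24 h (3.53 and 2.86 CPM) and 280 and 305 at 48 h (6.73 and 6.89 CPM). Every ENPP1+ATP and AMP library lay above every library of the other media. The log2 fold changes over vehicle were 3.45 ± 0.38 and 4.41 ± 0.36 for ENPP1+ATP and 3.91 ± 0.37 and 4.57 ± 0.36 for AMP, with SEs several times those of the other members. For ATP medium at 24 h (0.39 and 0.72 CPM, log2 1.40 ± 0.43, edgeR adjusted p = 0.034) the call was lost without ATP replicate 2 (adjusted p = 0.43), vehicle replicate 1 (adjusted p = 0.35) or vehicle replicate 2 (adjusted p = 0.078), and at 48 h it was not called (1.04 ± 0.42, adjusted p = 0.17).

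In NRVMs Perp was an abundant transcript that barely moved. It was at 184.5, 165.9 and 180.1 CPM on vehicle medium, 171.6, 158.0 and 167.7 on ATP, 166.9, 157.3 and 178.7 on ENPP1+ATP and 161.9, 166.9 and 159.9 on AMP medium. AMP and vehicle overlapped, and the log2 fold change of -0.12 ± 0.05 (edgeR adjusted p = 0.032) was lost without AMP replicate 1 or 3 or vehicle replicate 1 or 3 (adjusted p from 0.060 to 0.14).

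Of the receptors, Fas binds FAS ligand and is also a surface marker of p53 activity. In CFs at 24 h it was at 20.9 and 21.9 CPM on vehicle medium, 18.8 and 20.1 on ENPP1, 20.8 and 18.7 on ATP, 27.7 and 29.2 on ENPP1+ATP and 32.7 and 34.1 on AMP medium. ATP medium lay below both vehicle libraries at this time and was not called (log2 -0.11 ± 0.09, edgeR adjusted p = 0.53), while ENPP1+ATP and AMP were above, by 0.41 ± 0.08 and 0.64 ± 0.08. At 48 h Fas was at 21.9 and 24.5 CPM on vehicle medium, 23.9 and 25.9 on ENPP1, 36.1 and 31.0 on ATP, 46.7 and 53.01 on ENPP1+ATP, and 50.7 and 49.8 on AMP medium. All 3 media with ATP or AMP now lay above vehicle, by 0.54 ± 0.08, 1.10 ± 0.08 and 1.12 ± 0.08 on the log2 scale.

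In NRVMs Fas was the member with the largest rise. It was at 9.21, 6.61 and 7.84 CPM on vehicle medium, 8.42, 7.25 and 7.92 on ENPP1, 19.9, 21.3 and 25.5 on ATP, 13.7, 16.3 and 15.2 on ENPP1+ATP and 15.5, 16.5 and 15.7 on AMP medium. Vehicle and ENPP1 overlapped at the bottom, ENPP1+ATP and AMP overlapped in the middle, and ATP lay above both. The log2 fold changes were 1.49 ± 0.12 for ATP, 0.94 ± 0.12 for ENPP1+ATP and 1.01 ± 0.12 for AMP (edgeR adjusted p = 8.0e-15, 1.1e-08 and 1.7e-09), and ENPP1+ATP lay below ATP by 0.56 ± 0.11. The ATP libraries were also those with the lowest cardiomyocyte list and the highest macrophage list. The part of either in the change of Fas and Bax was not tested.

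Tnfrsf10b, the mouse receptor for TRAIL, climbed in CFs at both times. At 24 h it was at 62.1 and 67.8 CPM on vehicle medium, 67.4 and 67.1 on ENPP1, 76.2 and 78.55 on ATP, 118.5 and 129.4 on ENPP1+ATP and 147.4 and 154.4 on AMP medium. At 48 h it was at 69.4 and 79.1 CPM on vehicle medium, 74.7 and 84.2 on ENPP1, 107 and 100.7 on ATP, 151.1 and 176.9 on ENPP1+ATP and 155.4 and 172.8 on AMP medium. AMP lay above ENPP1+ATP at 24 h and inside its range at 48 h. The log2 fold changes over vehicle were 0.94 ± 0.08 and 1.14 ± 0.08 for ENPP1+ATP and 1.22 ± 0.08 and 1.15 ± 0.08 for AMP. The small ATP difference at 24 h (0.26 ± 0.08, edgeR adjusted p = 0.042) was lost without any 1 of the 4 libraries compared (adjusted p from 0.054 to 0.40), and so was that of AMP over ENPP1+ATP at 24 h (0.28 ± 0.08, adjusted p = 0.034, and adjusted p from 0.059 to 0.30 without a library).

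Aifm2 stood apart from the others in CFs. At 24 h it was at 24.7 and 25.6 CPM on vehicle medium, 28.9 and 26.8 on ATP, 24.1 and 27.4 on ENPP1+ATP and 24.5 and 25.2 on AMP medium, and no medium was called. At 48 h it was at 24.9 and 26.8 CPM on vehicle medium, 23.2 and 20.4 on ENPP1+ATP and 25.9 and 27.1 on AMP medium, and ENPP1+ATP was lower by 0.24 ± 0.08 on the log2 scale (edgeR adjusted p = 0.017), though not without ENPP1+ATP replicate 2 (adjusted p = 0.20) or vehicle replicate 2 (adjusted p = 0.14), nor when only the 2 groups were fitted (adjusted p = 0.078). In NRVMs it rose, from 11.6, 12.7 and 11.1 CPM on vehicle medium to 16.4, 13.7 and 15.6 on ATP, 17.1, 15.8 and 18.03 on ENPP1+ATP and 18.3, 21.9 and 18.4 on AMP medium. None of these overlapped vehicle, and the log2 fold changes were 0.37 ± 0.12, 0.53 ± 0.11 and 0.73 ± 0.11 (edgeR adjusted p = 0.0058, 0.00013 and 4.7e-07). Part of the mouse Aifm2 locus is shared with H2afy2 on the opposite strand.

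**Figure D2:**
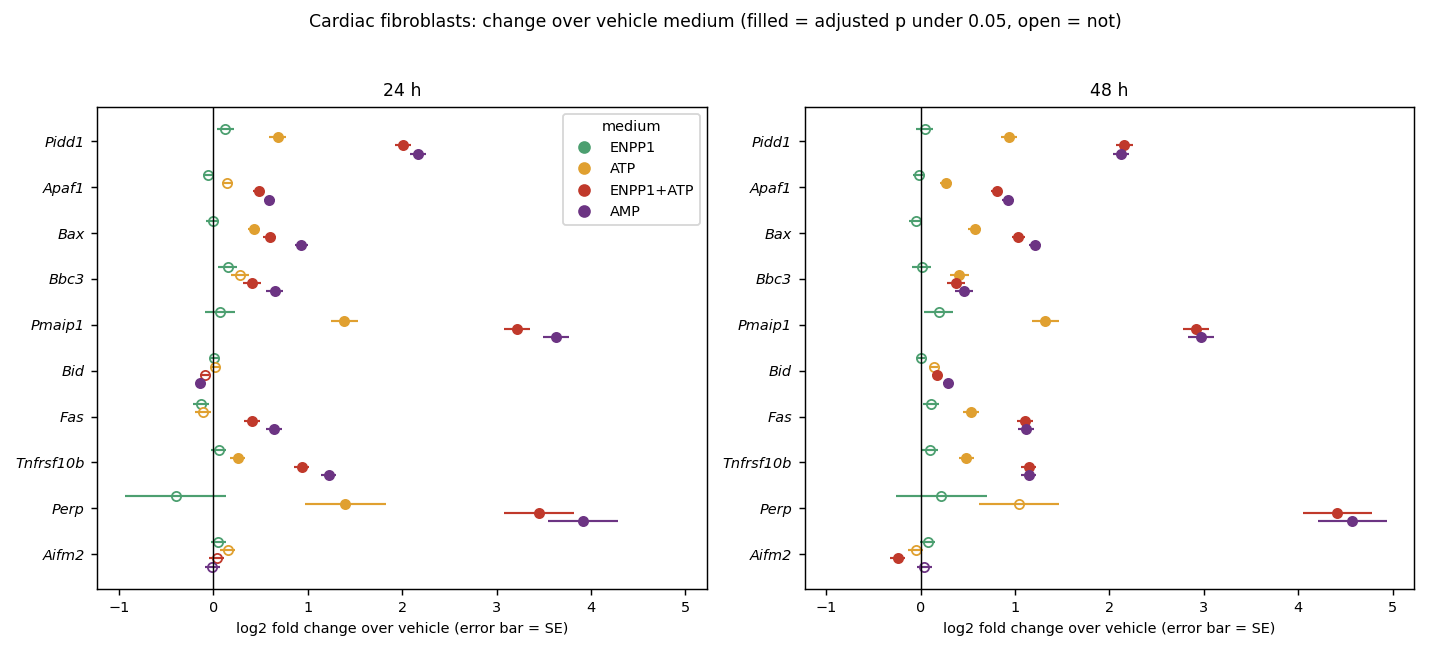
Log2 fold change over vehicle medium of each of the 10 genes in CFs at 24 h and 48 h for ENPP1, ATP, ENPP1+ATP and AMP medium, with bars of 1 SE from edgeR (2 libraries a group). Perp, Pmaip1 and Pidd1 lie above 2 for ENPP1+ATP and AMP, Aifm2 and Bid lie near 0, and ATP lies between ENPP1 and ENPP1+ATP for Pmaip1 and Pidd1.

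The log2 fold change of ENPP1+ATP over vehicle was higher at 48 h than at 24 h for 4 members and lower for 0 (15.1% and 14.9% of all genes). The difference of the log2 fold changes was 0.69 ± 0.12 for Fas, 0.44 ± 0.09 for Bax, 0.33 ± 0.08 for Apaf1 and 0.26 ± 0.07 for Bid (edgeR adjusted p = 6.8e-05, 0.00075, 0.0041 and 0.0042). For Bid it went from -0.09, which was not called, to 0.17, while Bid on ENPP1+ATP medium itself differed by 0.07 ± 0.05 between the times (adjusted p = 0.27) and fell on vehicle medium. With AMP medium the difference was positive for the same 4 genes, Fas (0.47 ± 0.12), Bid (0.43 ± 0.07), Apaf1 (0.34 ± 0.08) and Bax (0.28 ± 0.09), and negative for Pmaip1 (17.3% and 14.4% of all genes), and Bid turned from lower than vehicle to higher. These 2 differences share the vehicle libraries. The Bax difference for AMP was lost without AMP replicate 2 or vehicle replicate 1 at 24 h, or without AMP replicate 1 or vehicle replicate 1 at 48 h (adjusted p from 0.061 to 0.12). Within ENPP1+ATP medium 6 members were higher at 48 h than at 24 h and 1 was lower (19.5% and 21.2% of all genes), with Perp up by 1.41 ± 0.29, Fas by 0.81 ± 0.08 and Bax by 0.55 ± 0.07 on the log2 scale. Within AMP medium 6 were higher and 0 lower (22.3% and 20.8% of all genes), and within ATP medium 4 were higher and 0 lower (8.34% and 6.44%). Within ENPP1 medium Fas was higher by 0.36 ± 0.09 and Bid fell by 0.20 (3.06% of all genes higher and 4.89% lower).

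In NRVMs the members went in both directions. On ENPP1+ATP medium 3 of 7 were higher, namely Fas, Aifm2 and Bax, and 1 was lower, Pmaip1 (edgeR over 13461 genes, 28.6% higher and 27.4% lower). On AMP medium 3 were higher and 2 lower, with Perp the other lower gene (29.2% and 28% of all genes). On ATP medium 4 were higher, Fas, Bax, Aifm2 and Apaf1, and 0 lower (30.2% and 29.7%). The median log2 fold change of the 7 members was -0.046 for ENPP1+ATP, -0.10 for AMP and 0.20 for ATP, beside 0.0079, 0.0088 and 0.0064 over all genes. ENPP1+ATP lay below ATP for 4 members, Pmaip1, Fas, Bax and Apaf1 (14.1% of all genes were higher and 13.5% lower), and above it for 0. ENPP1 medium called 0 members and 0% of genes by edgeR, 1 member had an unadjusted p under 0.05, and DESeq2 called 0 members. AMP exceeded ENPP1+ATP for 1 member, Pmaip1 (0.25 ± 0.08, edgeR adjusted p = 0.045, 5.81% of all genes higher and 3.85% lower), a call that was lost without AMP replicate 1, 2 or 3 or ENPP1+ATP replicate 2 or 3 (adjusted p from 0.058 to 0.28).

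**Figure D3:**
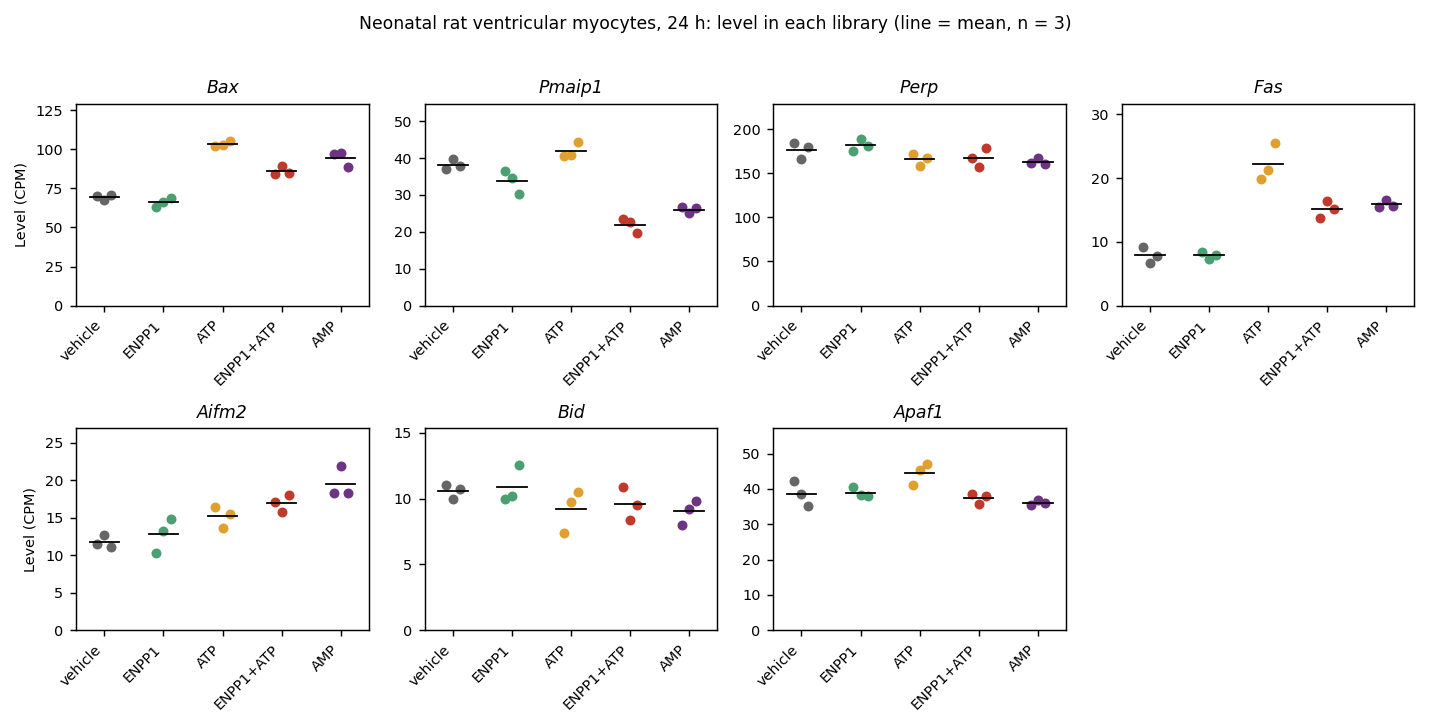
Level of each of the 7 genes found in NRVMs in every library, in CPM on linear axes that differ between genes, by conditioned medium (n = 3 libraries a group, points are libraries). Fas and Bax are highest on ATP medium, and Pmaip1 is lowest on ENPP1+ATP and AMP medium.

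**Figure D4:**
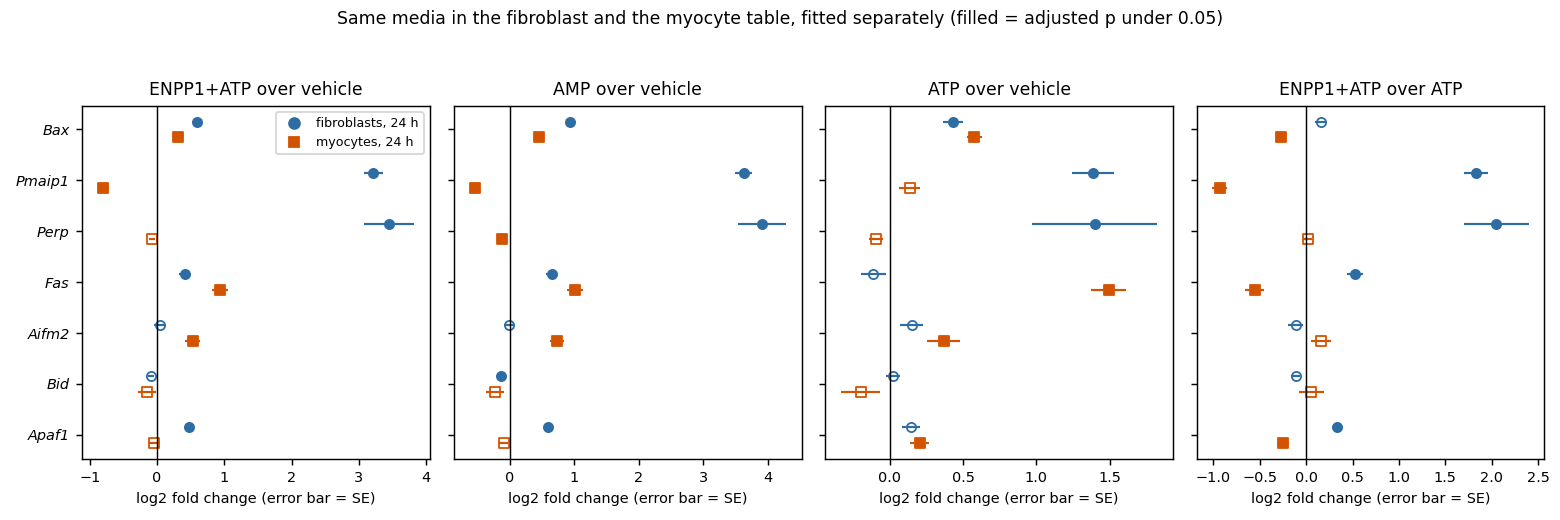
Log2 fold change of the 7 genes present in both tables, in CFs and in NRVMs at 24 h, for ENPP1+ATP, AMP and ATP medium over vehicle and for ENPP1+ATP over ATP medium, on axes that differ between panels, with bars of 1 SE from edgeR (2 CF and 3 NRVM libraries a group). Pmaip1 lies at 3.22 in CFs and -0.80 in NRVMs for ENPP1+ATP, and Fas lies at -0.11 and 1.49 for ATP; the cell types were not tested against each other.

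Other genes of the death pathways were called in both directions in CFs. Of 25 tested genes of the mitochondrial pathway outside the members, 6 were higher and 10 lower on ENPP1+ATP medium at 24 h (24% and 40%, beside 23.9% and 25.3% of all genes), with a median log2 fold change of -0.10. At 48 h 6 were higher and 12 lower (24% and 48%, beside 20.8% and 24.4%). The 4 of them named by size at 24 h all fell. Bmf, a BH3-only gene, went from 14.3 to 4.06 CPM (log2 -1.83 ± 0.13), and the survival genes Bcl2 (20.0 to 11.04 CPM) and Bcl2l2 (54.7 to 30.6 CPM) and the mitochondrial protease Htra2 (68.6 to 40.2 CPM) fell by 0.85, 0.83 and 0.77 on the log2 scale. Bcl2 was not called at 48 h (-0.16 ± 0.10, edgeR adjusted p = 0.22). These 2 survival genes act against the members' products, and Bmf acts with them. Not all survival genes of the list went down, since Bcl2l1 rose and fell with Bax across the CF libraries (r = 0.98).

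Of 19 tested genes of the receptor pathway outside the members, 3 were higher and 8 lower on ENPP1+ATP medium at 24 h (15.8% and 42.1%, beside the same shares of all genes as above), and 7 were higher and 7 lower at 48 h (36.8% each). Tnfsf10, which encodes TRAIL, the ligand of Tnfrsf10b, fell from 16.3 to 5.71 CPM at 24 h (log2 -1.51 ± 0.17) and from 7.19 to 1.73 CPM at 48 h (-2.05 ± 0.20), and Tnfrsf11b, a soluble decoy receptor, fell by 1.45 and 1.06. Daxx, a FAS-binding protein of the nucleus, fell by 0.81 and 0.49, and Mlkl, the effector of necroptosis, fell by 0.77 at 24 h and was higher by 0.21 ± 0.06 at 48 h. On ENPP1+ATP medium at 24 h, the partners that PIDD1 and APAF1 need were lower or not called. Of Cradd, Casp2, Casp9 and Cycs, 3 were lower, where 23.9% of all genes were higher and 25.3% lower. Cradd was at -0.95 ± 0.26, Casp9 at -0.38 ± 0.07 and Casp2 at -0.18 ± 0.07 on the log2 scale, while Pidd1 and Apaf1 rose. Casp9 and Cycs also belong to the mitochondrial list.

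The feedback and arrest genes of the p53 response were mostly higher as well. Of 26 tested, 19 were higher and 1 lower on ENPP1+ATP medium at 24 h (73.1% and 3.85%, beside 23.9% and 25.3% of all genes), with a median of 0.87. At 48 h 20 were higher and 3 lower (beside 20.8% and 24.4% of all genes), with a median of 1.03. The cell cycle brake Cdkn1a (p21) went from 123 to 479 CPM at 24 h, the p53 ubiquitin ligase Mdm2 from 137 to 525, the cyclin Ccng1 from 177 to 738 and the antiproliferative gene Btg2 from 29.5 to 170. Trp53 itself was at 217 CPM in both groups at 24 h (log2 -0.00 ± 0.04) and rose by 0.37 ± 0.04 at 48 h. In NRVMs 15 of 23 such genes were higher and 4 lower on ENPP1+ATP medium (65.2% and 17.4%, beside 28.6% and 27.4% of all genes), with Cdkn1a at 1.04 ± 0.04, Mdm2 at 1.02 ± 0.05 and Ccng1 at 0.66 ± 0.04, while Btg2 was lower by 0.16 ± 0.05. There 9 of 22 genes of the mitochondrial pathway were higher and 1 lower (40.9% and 4.55%), and 0 of 17 of the receptor pathway were higher and 8 lower (47.1%).

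Across the 20 CF libraries the members fell into a block and 2 outliers, given here as a description since the libraries share treatments. Of the 45 pairs of members, 26 had a Pearson correlation of log2 CPM over 0.8 and the median was 0.86, with a range from -0.47 to 0.99. Among 10881 other genes whose mean log2 CPM reached 2, Pmaip1 was most like Btg2 (r = 0.996), followed by Robo3 and Gtse1. Bax was most like Gfer (0.99), with Bcl2l1 and Rps27l next, and Apaf1 was most like Pmm1 (0.99), with Tmbim4 and Dcaf4 next. Pidd1 was most like Ces2f (0.996) and Tnfrsf10b most like Pqlc3 (0.99), and Mab21l3 was among the first 3 for both. Fas was most like Cd55 (0.98), Perp most like Scn3b (0.99), and Bbc3 most like Sbno2 and Phlda3 (0.90 each). Aifm2 and Bid had looser companions, Hif1an (0.83) and Adam19 (0.87).

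In the injured heart, the single-cell libraries gave 7255 cells of ENPP1CKO and 5238 of control mice after filtering, with medians of 3367 and 3701 counts per cell and 68 barcodes in common. There was 1 library for each genotype, so no difference between genotypes could be tested, and the intervals given are exact 95% limits that cover counting error only. Cells were clustered without the 10 genes and named from markers, which gave 3715 and 1853 fibroblast-like, 2054 and 2468 macrophage-like and 931 and 191 endothelial-like cells. Enpp1, the deleted gene, was at 28.9 CPM in ENPP1CKO and 130 in control fibroblast-like cells. The ENPP1CKO fibroblast-like cells lay mostly in clusters 0 and 1 (1910 and 1392 cells, led by Aspn and by Sfrp2), and the control ones mostly in clusters 1 and 6 (778 and 582 cells).

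The members differed widely in how well single cells could show them. Bax gave 5899 and 5194 counts over all cells of the ENPP1CKO and control libraries and Fas 1446 and 1445, while Perp gave 84 and 31 and Pidd1 6 and 11, so that no difference in Pidd1 was detectable at this depth. In fibroblast-like cells Bax was at 193 CPM in both libraries (log2 ratio of ENPP1CKO over control -0.00, limits -0.08 to 0.08), but its clusters went both ways, with -0.22 in cluster 1 (limits -0.38 to -0.06) and 0.55 in cluster 10 (limits 0.15 to 0.97), while clusters 0, 6 and 13 had limits that included 0. Fas was at 67.6 CPM in ENPP1CKO and 105 in control cells, from 1115 and 1093 counts (-0.64, limits -0.76 to -0.52). Fas was lower in each of the 5 fibroblast-like clusters, by 0.75 in cluster 0, 0.47 in cluster 1, 0.36 in cluster 6, 0.94 in cluster 10 and 0.19 in cluster 13, where the limits included 0. Cluster 12 had 10 of the fibroblast markers but was left unnamed. Fas there was at 79.8 CPM in ENPP1CKO and 66.1 in control cells (0.27, limits -0.67 to 1.11).

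The less abundant members split in direction in fibroblast-like cells. Apaf1 was at 18.9 CPM in ENPP1CKO and 13.5 in control cells (log2 ratio 0.48, limits 0.19 to 0.78) and Pmaip1 at 4.18 and 1.83 (1.19, limits 0.44 to 2.01), from 69 and 19 counts. Bid was at 3.39 and 7.33 CPM (-1.11, limits -1.64 to -0.59), from 56 and 76 counts. Thinning the 3605 and 1809 cells with at least 1000 counts to that depth gave a ratio of -0.19 for Bid (limits -1.54 to 1.27, from 14 and 8 counts), 0.82 for Apaf1 (limits 0.14 to 1.56) and 0.68 for Pmaip1 (limits -0.83 to 2.49), so that Apaf1 alone of the 3 kept limits without 0. Bbc3 (17.9 and 18.7 CPM), Aifm2 (6.85 and 7.62) and Tnfrsf10b (3.58 and 3.95) had limits that included 0, and Aifm2 moved from -0.15 to -0.86 with thinning (limits -1.78 to 0.06). Of the p53 feedback genes, Mdm2 was at 27.5 and 24.6 CPM and Cdkn1a at 270 and 218 in the same cells.

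**Figure D5:**
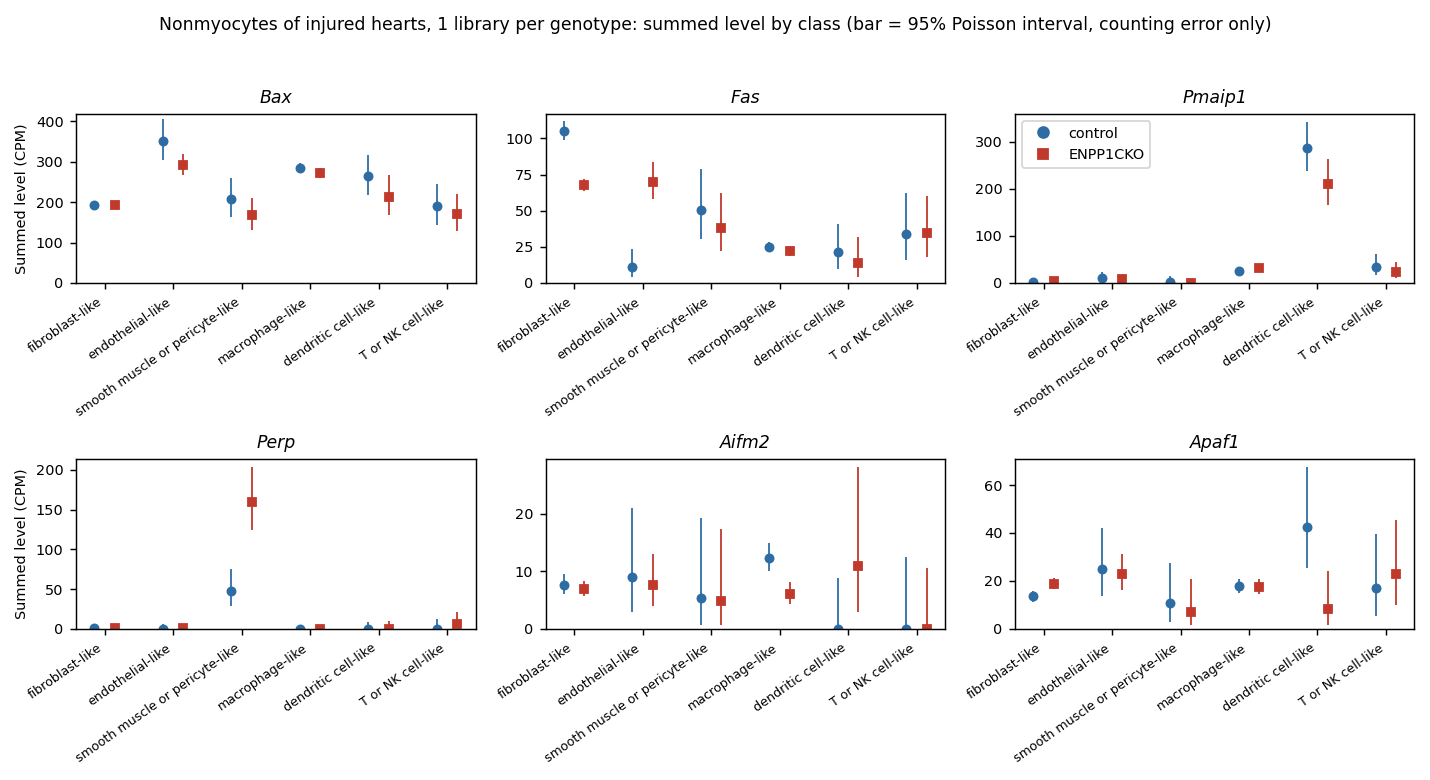
Level of Bax, Fas, Pmaip1, Perp, Aifm2 and Apaf1 in 6 named cell classes of 1 ENPP1CKO and 1 control library at 7 days after infarction, in CPM of summed counts with exact 95% Poisson limits (counting error only). Fas is lower in ENPP1CKO than in control fibroblast-like cells (67.6 and 105 CPM) and higher in endothelial-like cells (70.1 and 10.8 CPM).

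In endothelial-like cells Fas went the other way, at 70.1 CPM in ENPP1CKO and 10.8 in control cells, from 120 and 6 counts (log2 ratio 2.70, limits 1.54 to 4.18). Most of these counts lay in cluster 4, with 118 and 4, where the median depth was 1424 counts per cell in ENPP1CKO and 2608 in control cells. Bax was at 293 and 352 CPM there (-0.27, limits -0.51 to -0.02, and -0.40 when thinned, limits -0.84 to 0.05). In macrophage-like cells Bax (271 and 284 CPM), Fas (22.0 and 24.8) and Bid (7.71 and 10.5) had ratios of -0.07, -0.17 and -0.45 with limits that included 0, though Fas thinned to 1000 counts came to -0.60 (limits -1.19 to -0.03). By cluster, Bax was at -0.23 in cluster 2 (limits -0.35 to -0.10) and Bid at -1.12 in cluster 3 (limits -2.20 to -0.09), the latter from 14 and 22 counts, and otherwise their limits in macrophage-like clusters included 0. Over all macrophage-like cells Bbc3 was at 9.95 and 13.7 CPM (-0.46, limits -0.91 to -0.02), but no single macrophage-like cluster had limits without 0. It was at -0.02 in cluster 2, -0.32 in cluster 3, 0.07 in cluster 15 and 1.16 in cluster 5, which held 48 of the 116 control counts and mostly control cells. Pmaip1 was at 31.4 and 25.1 CPM (0.32, limits 0.04 to 0.60), a direction that turned with thinning (-0.34, limits -0.88 to 0.19). Aifm2 was at 6.02 CPM in ENPP1CKO and 12.3 in control macrophage-like cells (-1.03, limits -1.57 to -0.50), and 60 of its 104 control counts came from cluster 5, which held 820 control and 55 ENPP1CKO cells. Within cluster 5 Aifm2 was at 41.8 and 35.01 CPM, from 6 and 60 counts. Most Perp counts lay in smooth muscle or pericyte-like cells, 67 of 84 in ENPP1CKO and 18 of 31 in control cells. Its level there was 160 and 47.9 CPM (1.74, limits 0.97 to 2.58, and 3.46 when thinned, from 20 and 1 counts, limits 0.82 to 8.84). Cardiomyocyte-like cells had Perp at 131 and 112 CPM, from only 6 and 2 counts, too few to rank them against the smooth muscle or pericyte-like cells. The level of Pmaip1 was highest in dendritic-like cells, at 211 and 287 CPM from 77 of 403 and 121 of 419 counts (-0.45, limits -0.88 to -0.02, and -0.35 when thinned, limits -1.24 to 0.50).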

How the data were processed

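RNA was sequenced from CFs (20 libraries), NRVMs (15 libraries) and nonmyocytes of injured hearts (2 single-cell libraries). The authors deposited raw read counts per gene for CFs and NRVMs and molecule counts by gene and barcode for the single-cell libraries, and none had been normalized. The submitters' processing notes name STAR 2.5.3a, Cell Ranger and the builds mm10 and rn6, and the counting program and its use of strand are not given in the sources used here. The number of value columns not mapped to a sample was 0. Samples were grouped by their labels. The members and all gene lists were chosen with earlier results of these data known.

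Bulk counts were fitted with edgeR 4.0.16 in R 4.3.3 (filterByExpr, TMM factors, robust quasi-likelihood fit over all libraries of an experiment, 17879 genes in CFs and 13461 in NRVMs), with Benjamini-Hochberg adjustment over all genes tested and a threshold of 0.05. CPM values are scaled by TMM, and correlations used log2 CPM with a prior count of 2. Variation between replicates (edgeR's biological coefficient) came to 0.0590 for CFs and 0.0499 for NRVMs. On simulated counts in the same design, 86% of 1.5-fold changes were recovered in CFs (16956 genes) and 98% in NRVMs (13254 genes). Alternatives were DESeq2 1.42.0, its size factors in edgeR, no filter, a replicate block, only the groups compared, and leaving out each library. Replicates of a group differed by more than sampling noise (chi-square per gene 2.46 to 36.5 over 25 pairs). Named genes were the 10 members, up to 4 genes of each other list with the largest change past the threshold in CFs on ENPP1+ATP medium at 24 h, and Trp53, Mdm2 and Cdkn1a. The 3 genes most like each member were sought among genes whose mean log2 CPM reached 2.

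Of 7460 and 5347 barcodes of the ENPP1CKO and control libraries, those with under 200 genes or over 20% mitochondrial counts and 151 and 71 predicted doublets were removed. Cells were clustered with scanpy 1.11.5 (2000 variable genes without the members, 30 components, 15 neighbours, Leiden resolution 0.5) and named from at least 3 detected markers. Cluster 12 scored as fibroblast but was left unnamed because the epithelial or mesothelial genes Dmkn and Lgals7 were among its leading genes. That rule was chosen after the clusters were seen. Counts were summed by class, with limits for 95% confidence.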

Additional observations from a re-analysis of the deposited data

Results flagged for a closer look

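By edgeR's test of the interaction, the ENPP1+ATP response of CFs changed between 24 h and 48 h for 4 of 10 members, all upward. Of all genes, 15.1% were higher and 14.9% lower there. The AMP response changed for 5 of 10 members, with Pmaip1 downward, beside 17.3% of all genes higher and 14.4% lower. Both comparisons share the vehicle libraries. For ENPP1+ATP over vehicle the log2 fold change at 48 h exceeded that at 24 h by 0.44 for Bax, 0.69 for Fas, 0.26 for Bid and 0.33 for Apaf1. For AMP over vehicle the differences were 0.28 for Bax, 0.47 for Fas, 0.43 for Bid, 0.34 for Apaf1 and -0.65 for Pmaip1. The AMP calls of Bax (edgeR adjusted p from 0.061 to 0.12) and Pmaip1 (0.053 to 0.13) were each lost when any of 4 libraries was left out on its own. Bid fell with time on vehicle medium itself.

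In 7 of 35 cases (7 members in 5 comparisons of media) every library moved 1 way in CFs at 24 h and the other way in NRVMs, as did 15.8% of the cases of all genes tested in both tables. These differences were not tested because the cell types come from separate tables. For ENPP1+ATP over vehicle Pmaip1 was at 3.22 in CFs and -0.80 in NRVMs on the log2 scale, and for AMP over vehicle at 3.63 and -0.55. For ATP over vehicle Fas was at -0.11, which was not called, and 1.49. For ENPP1+ATP over ATP, Bax was at 0.16, which was not called, and -0.27, Pmaip1 at 1.83 and -0.93, Fas at 0.53 and -0.56, and Apaf1 at 0.33 and -0.25.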

How the results depend on the processing

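No called member of the CF or NRVM tables changed sign under any alternative run. Outside the leave-one-out fits, 99 counts of called members stayed within 1.5 times their value and 2 did not, and single members gained a call 14 times and lost one 4 times. Beside Bbc3 below, the gains in CFs were Pmaip1 for AMP over ENPP1+ATP at 24 h with no filter, the replicate block and only the groups compared, Bid for ATP at 48 h under DESeq2 and with only the groups compared, Bax for ENPP1+ATP over ATP at 24 h with DESeq2 size factors, and Tnfrsf10b for the change with time of ENPP1+ATP with no filter, and in NRVMs Perp for ATP with no filter. The losses were Pmaip1 for AMP over ENPP1+ATP in NRVMs under DESeq2 and with only the groups compared, and, with only the groups compared, Bid for AMP at 24 h and Aifm2 for ENPP1+ATP at 48 h in CFs. The 2 counts were both for AMP over ENPP1+ATP in NRVMs, where the count of 1 became 0 under DESeq2 and with only the groups compared. For ATP over vehicle in CFs at 24 h the count of 5 became 6, by Bbc3, under DESeq2, DESeq2 size factors, no filter, the replicate block and only the groups compared, and in a fit with the numbers of the ATP libraries crossed, chosen after seeing the data. Deviations of same-numbered libraries had correlations of -0.136 to 0.132 over 18 pairs of groups, so the numbers were not read as pairs. Leaving out 1 library moved 4 counts by over 1.5 times. The 5 members of ATP over vehicle in CFs at 24 h became 3 to 4, the 2 of AMP over ENPP1+ATP in CFs at 24 h became 0 to 1, the 5 of the change with time of AMP over vehicle became 3 to 5, and the 1 of AMP over ENPP1+ATP in NRVMs became 0 to 1. Counts over all genes moved by over 1.5 times in the comparisons with few calls. For AMP over ENPP1+ATP in CFs at 48 h the 29 genes became 322 with no filter, 47 with the replicate block, 125 with DESeq2 and 2 with only the groups compared, and with only the groups compared the 1118 genes of that comparison at 24 h became 382 and the 1400 of ATP over vehicle at 48 h became 2590. For ENPP1 over vehicle 0 became 26 in CFs at 24 h, 180 at 48 h and 14 in NRVMs with no filter, 1 in CFs at 48 h and 5 in NRVMs with only the groups compared, and 1 in NRVMs with DESeq2. Leaving out 1 library moved the all-gene counts of 5 comparisons, all in CFs, by over 1.5 times. Without any 1 of the 4 libraries compared, for ATP over vehicle the 1983 genes at 24 h became 920 to 1205 and the 1400 at 48 h became 646 to 929. For AMP over ENPP1+ATP the 1118 genes at 24 h became 255 to 1183 (255 without ENPP1+ATP replicate 1, 529 without its replicate 2 and 722 without AMP replicate 1) and the 29 at 48 h became 2 to 106. For ENPP1 over vehicle at 48 h 0 became 129 without ENPP1 replicate 2. In single cells thinned to 1000 counts, fibroblast-like log2 ratios of ENPP1CKO over control were 0.11 for Bax, -0.86 for Aifm2, -0.19 for Bid and 0.82 for Apaf1, and that of Pmaip1 in macrophage-like cells turned to -0.34. The cause was not tested. Depth limits Perp and Pidd1 in single cells, and Perp in CFs on vehicle medium.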
